A study of Arabidopsis thaliana with 30 samples.

Results

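Transcript levels of 8 genes of local phosphate sensing and of root aluminium tolerance were followed across 5 sorted cell types of the Arabidopsis thaliana root. The 8 genes, chosen by locus identifier, were LPR1 (AT1G23010), LPR2 (AT1G71040), PDR2 (AT5G23630), STOP1 (AT1G34370), ALMT1 (AT1G08430), ALS3 (AT2G37330), STAR1 (AT1G67940) and MATE (AT1G51340). They are 8 of the 32833 genes in the count table, and all 8 passed the filter on low counts that kept 24866 genes. Seedlings labelled wild type were grown for 6 days at 22 °C on diluted MS medium with low phosphate (LPi) or high phosphate (HPi), in a device that keeps roots shaded. The protocol gives LPi as 5 µM phosphate, while the sample labels describe a medium without phosphate, so the exact level is uncertain. Root cells were then sorted by the fluorescent reporter of 5 lines, with 3 libraries per line and phosphate level and 30 libraries in all. The lines were WER::GFP for epidermis, J0571 for cortex, J0661 for pericycle, SHR::GFP for stele and J3411 for lateral root cap. The J lines are enhancer trap lines, in which the reporter follows a driver of unknown endogenous control, and each cell type was sampled from a single line, so line and cell type cannot be told apart. In sorted bulk samples, fewer cells of a type and less RNA per cell cannot be told apart either.

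When phosphate is scarce, the growing tip of an Arabidopsis root stops elongating through a local response that depends on iron in the cell walls. LPR1 and LPR2 are cupredoxin-type multicopper oxidases that act as ferroxidases in this response, and PDR2, a P5-type ATPase of the endoplasmic reticulum, restrains LPR1. STOP1 is a zinc finger transcription factor that activates ALMT1, the channel that releases malate from the root, and malate helps to mobilise iron. STOP1 also activates MATE, a citrate exporter, and is best known for aluminium and acid tolerance. ALS3 and STAR1 are the membrane and the nucleotide binding parts of a bacterial-type ABC transporter that is required for aluminium tolerance and that restrains iron accumulation at the tip under low phosphate.

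Libraries differed widely in depth, with 427064 to 122076663 reads in genes. The 3 shallowest were stele LPi replicate 1, stele HPi replicate 1 and pericycle LPi replicate 3. Epidermis LPi replicate 3 and epidermis HPi replicate 3 carry labels of different phosphate levels but had almost the same counts. Their pairwise biological coefficient of variation was 0.0444, and the next lowest within a cell type was 0.263. Calls lost without these libraries are named with the value without them. Those lost without pericycle LPi replicate 3 were also lost without the 3 shallowest, which include it. The sorts carried their expected markers with exceptions. The cortex sort held JKD at 23.2 to 34.0 CPM (counts scaled to library size) at LPi and 23.6 to 42.8 CPM at HPi, but 2 other cortex markers were at 4.34 to 6.62 CPM at LPi and 0.877 to 4.97 CPM at HPi (AT1G09750) or at 0 to 0.505 CPM (AT1G62500). It also carried the endodermis markers, whose summed level over 5 genes was 2864 to 6261 CPM at LPi, against 3.36 to 252 CPM in the other sorts, and 3469 to 8900 CPM at HPi, against 6.80 to 1101 CPM in the other sorts. One of those 5, ESB1, was near 0 in every sort. AT1G09750 was also read in the epidermis sort at HPi, at 1.42 to 6.48 CPM. Below, cortex is the label of this sort only, and no level in it can be assigned to cortex or endodermis cells. The sum of the 2 pericycle markers, GATA23 and PHO1, overlapped between pericycle and stele. It was 15.4 to 36.2 CPM in pericycle and 11.4 to 27.5 CPM in stele at HPi. At LPi it was 42.7 to 99.8 CPM and 21.6 to 48.1 CPM. PHO1 alone overlapped as well, at 5.89 to 23.2 CPM in pericycle and 10.8 to 26.3 CPM in stele at HPi. GATA23 did not, at 9.497 to 12.96 CPM in pericycle and 0.672 to 1.30 CPM in stele at HPi. Phloem markers (SUC2 and APL) summed to 193 to 323 CPM in pericycle and 107 to 136 CPM in stele at HPi, nearly all SUC2. At HPi the 4 root cap markers were as high in epidermis (969 to 1200 CPM) as in lateral root cap (603 to 1780 CPM). Epidermis markers summed to 52.7 to 90.9 CPM at LPi and 25.6 to 84.7 CPM at HPi in the lateral root cap sort. In the epidermis sort they summed to 95.6 to 119 CPM and 67.3 to 110 CPM. Of these markers only WER did not overlap between the sorts at HPi (0.906 to 3.89 CPM against 12.6 to 19.1 CPM). How far the epidermis and lateral root cap sorts held the same cells was not tested.

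All members are protein coding genes, located on the TAIR10.1 assembly as annotated by RefSeq. LPR1 lies on chromosome 1 from 8147118 to 8149891 (plus strand) and LPR2 on chromosome 1 from 26796725 to 26800483 (minus strand). PDR2 lies on chromosome 5 from 7960478 to 7968197 (minus strand). STOP1 spans 12550339 to 12552629, ALMT1 spans 2658602 to 2661310, STAR1 (annotated as ABCI17) spans 25477670 to 25478803 and MATE spans 19030998 to 19035121, all on the plus strand of chromosome 1. ALS3 lies on chromosome 2 from 15669131 to 15670187 (plus strand).

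Because LPR1 and LPR2 are paralogs that were read mostly in different sorts, their sequences were compared. Over 1733 aligned coding bases they were 77.0% identical, and the longest stretch shared exactly was 29 bases. The 60 bases around that stretch, coding positions 1554 to 1613 in both genes, are shown 5′ to 3′ with the 6 differing bases in capitals.
LPR1: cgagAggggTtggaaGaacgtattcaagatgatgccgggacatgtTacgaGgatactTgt
LPR2: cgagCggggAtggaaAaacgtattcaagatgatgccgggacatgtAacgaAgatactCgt
Reads from most of either gene can therefore be told from those of the other by sequence. STOP1 and its paralog STOP2 were 62.0% identical over 1096 aligned bases, and MATE and the citrate exporter FRD3 were 63.7% identical over 1525 aligned bases. ALMT1 was 87.1% identical over 1455 aligned bases to AT1G08440, an aluminum activated malate transporter family gene, with a shared exact stretch of 37 bases, so the ALMT1 counts are uncertain to the extent that reads were split between the copies.

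The 250 bases before the annotated start of LPR1 (chr1:8146868-8147117, plus strand) and LPR2 (chr1:26800484-26800733, minus strand) are shown because the paralogs differed most in where they were read.
LPR1: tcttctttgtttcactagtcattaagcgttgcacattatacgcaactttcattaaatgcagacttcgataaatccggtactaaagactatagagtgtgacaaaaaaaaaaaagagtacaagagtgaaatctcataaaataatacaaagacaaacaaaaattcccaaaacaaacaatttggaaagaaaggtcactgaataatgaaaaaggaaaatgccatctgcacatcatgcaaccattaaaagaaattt
LPR2: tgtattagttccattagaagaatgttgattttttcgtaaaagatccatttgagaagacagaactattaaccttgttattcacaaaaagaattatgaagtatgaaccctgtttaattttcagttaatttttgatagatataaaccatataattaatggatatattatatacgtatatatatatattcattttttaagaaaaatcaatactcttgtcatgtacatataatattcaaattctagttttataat
Neither window held P1BS, the site of PHR1 and its relatives (GNATATNC, searched on both strands), and neither did the windows of the other 6 members. P1BS was present in 5.46% of 27443 windows of the same length across the genome. The W-box core (TTGAC, both strands, sharing no letters with a P1BS match) had 1 match each in the windows of STOP1 and STAR1, 90 and 119 bases before the start, and was present in 44.9% of all windows.

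The 8 genes differed in mean level. Per kilobase of exon at HPi, STOP1 averaged 67.3 CPM, PDR2 25.8 CPM and LPR2 16.0 CPM over the 15 libraries, whereas ALS3 averaged 4.67 CPM, STAR1 3.70 CPM, ALMT1 1.01 CPM, MATE 0.957 CPM and LPR1 0.692 CPM. The same genes led at LPi, where STOP1 averaged 66.7 CPM, PDR2 36.2 CPM and LPR2 25.2 CPM per kilobase. Without pericycle LPi replicate 3 the LPi averages of PDR2 and LPR2 were 24.1 and 12.0 CPM per kilobase, and that of STOP1 was 68.9 CPM per kilobase. The mean of LPR2 rests on pericycle and stele, and its HPi libraries ran from 0.227 to 145 CPM with a median of 5.16 CPM. STOP1, PDR2 and ALS3 were read in every library. Single libraries held 0 reads of LPR1, LPR2, ALMT1, STAR1 or MATE. A library with 0 reads of a gene still allows a level of up to 3 counts, and such limits cover counting error only, since the reads were amplified.

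**Figure D1:**
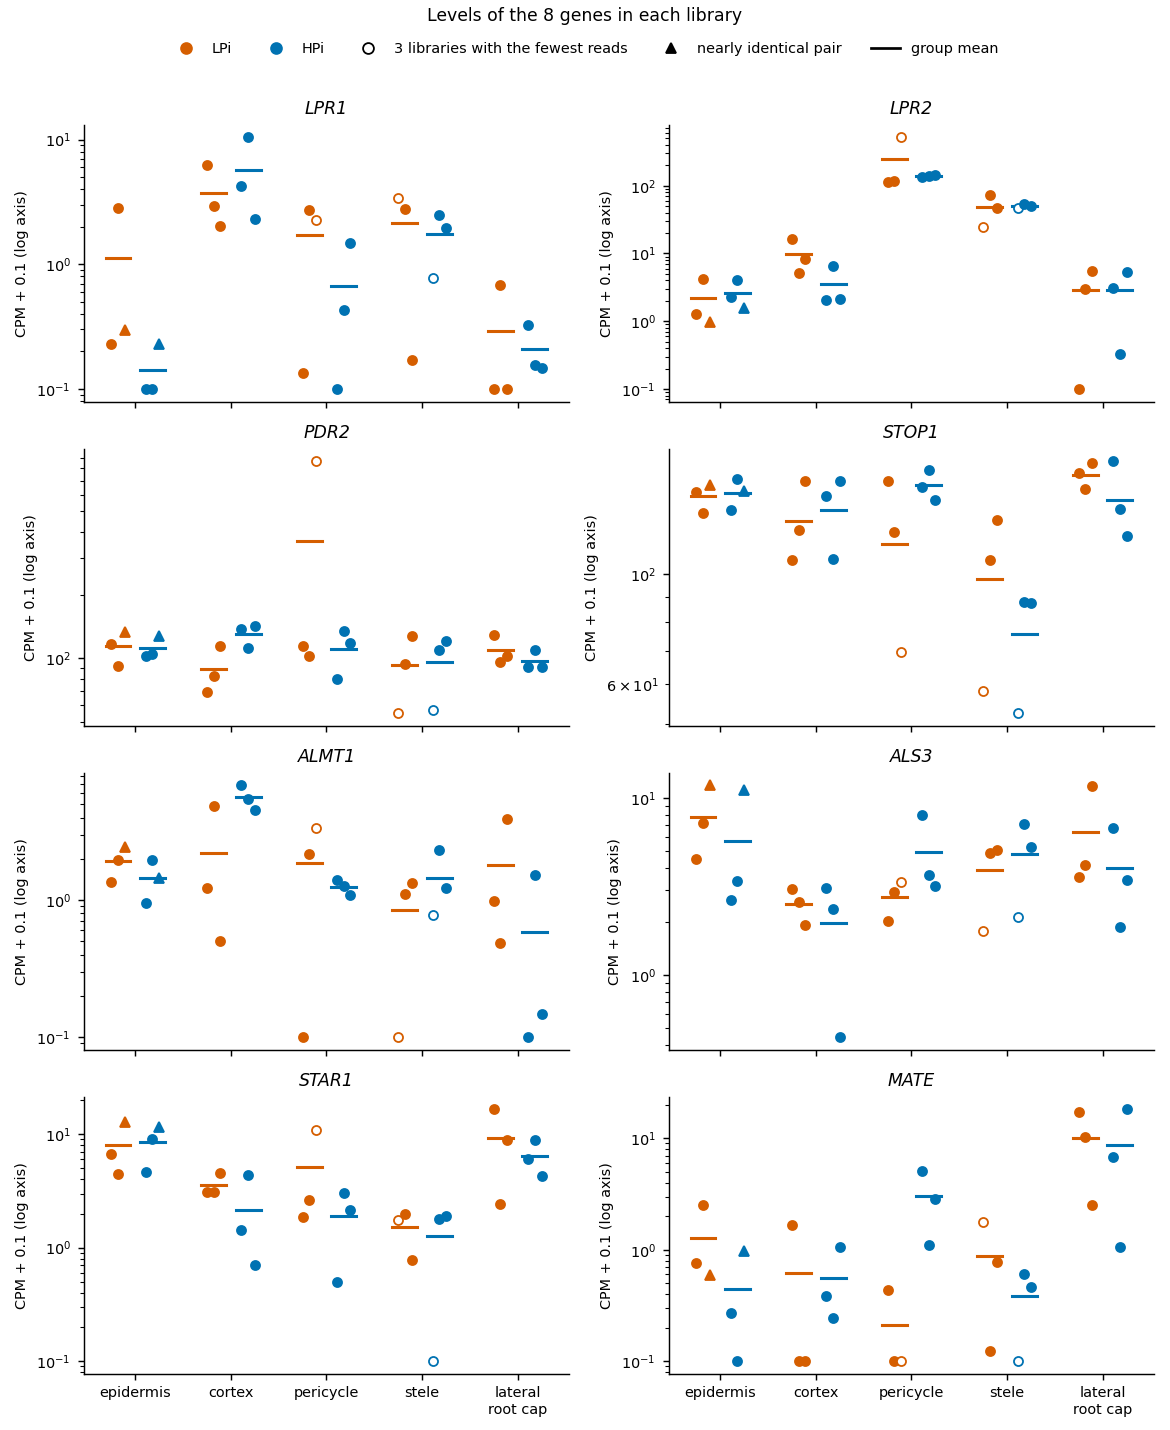
Level of each of the 8 genes in the 30 libraries, in CPM + 0.1 on a log axis, by cell type with LPi (orange) left of HPi (blue). Points are libraries (3 per group), bars are group means, open circles are the 3 libraries with the fewest reads and triangles are the nearly identical epidermis pair. STOP1 and PDR2 lie near 100 CPM in nearly every library, whereas LPR2 is highest in pericycle (114 to 521 CPM at LPi and 136 to 145 CPM at HPi).

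Whether low phosphate changed these genes was asked in each cell type. No member was called at LPi against HPi in any of the 5 sorts by the edgeR quasi-likelihood F test at an adjusted p under 0.05, and the same test called few genes of any kind. In the epidermis 0 of 8 members were called, where 0% of all 24866 tested genes were called, and in the cortex 0 of 8 with 0%. In the pericycle 0 of 8 were called with 0.00402% of all genes, in the stele 0 of 8 with 0%, and in the lateral root cap 0 of 8 with 0.0241%. For the mean response over the 5 cell types 0 of 8 were called with 0.00402% of all genes, and for a response that differs between cell types 0 of 8 were called with 0%. At an unadjusted p under 0.05, edgeR listed LPR1 in the epidermis, PDR2 and MATE in the pericycle and, for a response that differs between cell types, PDR2. DESeq2 (which returned no adjusted p for PDR2) and limma voom also called 0 members in each of these comparisons. At an unadjusted p under 0.05, DESeq2 listed 1 member in the epidermis, 2 in the pericycle and 1 in the stele, and limma voom listed 2 in the cortex, 1 in the pericycle and 1 for a response that differs between cell types. The median log2 change of the 8 members lay between -0.04 (stele) and 0.63 (pericycle), against -0.26 (pericycle) to 0.08 (epidermis) for all tested genes. LPi and HPi libraries of a member did not overlap in 1 of 8 cases in the epidermis (6.7% of all genes) and 1 of 8 in the pericycle (14%). In the cortex (8.64% of all genes), stele (8.7%) and lateral root cap (7.8%) 0 of 8 were without overlap.

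LPR1 in the epidermis was the first of the 2 members without overlap. It was read at 0.131, 2.73 and 0.196 CPM at LPi (2, 25 and 2 reads), against 0, 0 and 0.129 CPM at HPi (0, 0 and 4 reads). All 3 LPi libraries were higher than the HPi libraries, but most of the difference was in LPi replicate 2, and 0 reads in HPi replicates 1 and 2 allow up to 0.507 and 0.234 CPM, above LPi replicates 1 and 3. The log2 change was 3.93 (SE 1.83, adjusted p = 1 by edgeR), and it was 1.35 without epidermis LPi replicate 2. Without the nearly identical pair it was 8.10 with an adjusted p of 1, a value that rests on HPi libraries with 0 reads and is no estimate of size.

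MATE in the pericycle was the other. It was read at 0.333, 0 and 0 CPM at LPi (10, 0 and 0 reads), against 4.99, 0.997 and 2.76 CPM at HPi (228, 117 and 78 reads). The 3 LPi libraries were lower than all HPi libraries, although 0 reads in the shallow LPi replicate 3 allow up to 3.25 CPM, which lies above 2 of the 3 HPi libraries. The log2 change was -4.15 (SE 1.74, adjusted p = 0.306 by edgeR, and 0.116 to 0.947 over the alternatives). Without pericycle LPi replicate 1 it was -9.10, a value that rests on LPi libraries with 0 reads and is no estimate of size. The median gene in the pericycle stood at -0.26 under TMM scaling and at 0.02 under RLE size factors, and MATE was at -4.00 (adjusted p = 0.269) under RLE scaling.

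PDR2 in the pericycle had the smallest p of any member. Its level was 114, 102 and 865 CPM at LPi, against 80.0, 134 and 118 CPM at HPi. LPi replicate 3, one of the 3 shallowest libraries, stood far above the rest, and the other 2 LPi libraries lay within the HPi range. The log2 change of 1.69 (SE 0.508, adjusted p = 0.130 by edgeR) was 0.12 (adjusted p = 1) without that library and -0.02 (adjusted p = 0.987) by limma voom, which gives outlying libraries less weight. It passed the threshold under RLE size factors (log2 change 2.19, adjusted p = 0.0349) and without pericycle LPi replicate 1 or 2, where the outlying library weighs more. The joint test for a response that differs between cell types gave an adjusted p of 0.897 by edgeR. LPR2 was also highest in that library (521 CPM, against 114 and 116 CPM in the other LPi libraries), and STOP1 was lowest there (69.4 CPM, against 153 and 121 CPM). The root cap markers summed to 78.1 CPM in that library and to 2.96 and 3.29 CPM in the other 2, and the part of its depth and of other cells in these values was not tested.

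For the other members edgeR gave no change with an unadjusted p under 0.05 in any sort. The largest change of LPR2 was in the cortex, where its level was 16.2, 4.98 and 8.18 CPM at LPi, against 1.96, 6.39 and 2.03 CPM at HPi. The groups overlapped through HPi replicate 2, and the log2 change was 1.56 (SE 0.976, adjusted p = 1 by edgeR). It was 0.967 without cortex LPi replicate 1, the highest library, and 2.28 without cortex HPi replicate 2. STOP1, the transcription factor of the module, moved least, with log2 changes from -0.39 (pericycle) to 0.38 (stele) and standard errors near 0.30. The value in the pericycle was 0.000496 without LPi replicate 3.

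ALMT1, the malate channel, had its largest change in the lateral root cap. It was read there at 0.880, 0.388 and 3.84 CPM at LPi, against 0, 1.42 and 0.0478 CPM at HPi. The groups overlapped, the HPi library at 0 reads allows up to 0.687 CPM, and the log2 change was 1.69 (SE 1.31, adjusted p = 1 by edgeR). It was 0.361 without lateral root cap LPi replicate 3 and 5.37 without HPi replicate 2, which leaves HPi libraries with 1 read at most. In the cortex, where ALMT1 was highest, the log2 change was -1.39 (SE 1.26). The largest changes of the transporter subunits were both in the pericycle, -0.91 (SE 0.804, adjusted p = 0.704) for ALS3 and 1.28 (SE 0.915, adjusted p = 0.610) for STAR1, and the ALS3 value was -0.405 without pericycle HPi replicate 1 and the STAR1 value 0.434 without pericycle LPi replicate 3 and 0.751 without pericycle HPi replicate 1. Averaged over the 5 cell types, log2 changes of the 8 members ran from -0.37 (MATE) to 1.11 (LPR1), and STOP1 stood at 0.01 (SE 0.134). These standard errors leave room for changes of sizeable fold in the low members, so the absence of calls does not show that they kept their level.

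**Figure D2:**
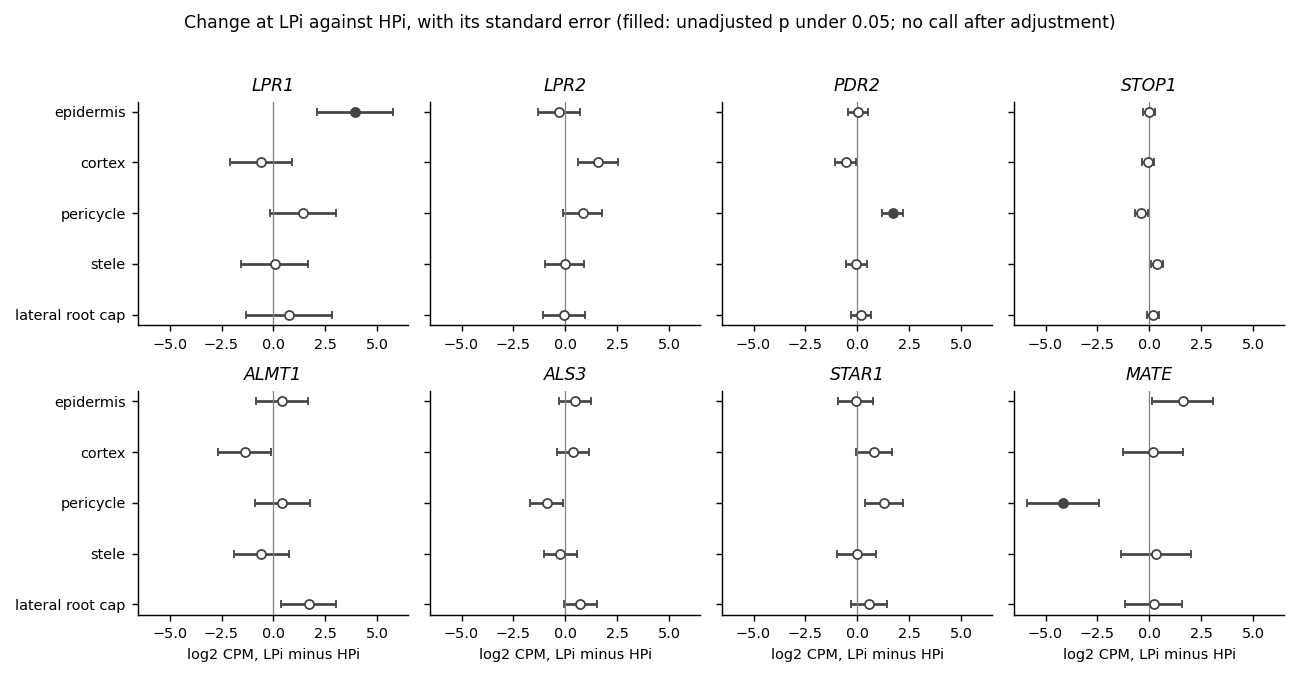
Log2 change in CPM at LPi against HPi (x axis, LPi minus HPi) for each of the 8 genes in the 5 cell types, with 1 standard error on each side. Filled points mark an unadjusted p under 0.05, and none passed after adjustment. LPR1 in epidermis (3.93), PDR2 in pericycle (1.69) and MATE in pericycle (-4.15) are the filled points, and the intervals of STOP1 are the narrowest.

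Where in the root each gene was read was asked separately at LPi and at HPi. A joint test over the 5 sorts was used, and each sort was set against the mean of the other 4. That mean was taken over log2 levels, here and below, so sorts with very low levels enlarge a difference. At LPi the joint test called 3 of 8 members (LPR2, PDR2 and MATE), where 39% of all genes were called. At HPi it called 4 of 8 (LPR1, LPR2, STAR1 and MATE), where 39.1% of all genes were called. The joint call of PDR2 at LPi was lost without pericycle LPi replicate 3 (adjusted p = 0.492), and that of STAR1 at HPi without the nearly identical epidermis pair (adjusted p = 0.0713). Counts of this size are close to what the share over all genes gives for 8 genes. STOP1 missed the threshold at HPi (adjusted p = 0.0599), as did ALMT1 (0.189), ALS3 (0.463) and PDR2 (0.919).

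At LPi, 0 of 8 members were higher in the epidermis than in the other 4 sorts (13.5% of all genes) and 1 was lower (6.04%). In the cortex 0 of 8 were higher (7.09% of all genes) and 0 were lower (3.25%) by edgeR, with 0 members at an unadjusted p under 0.05, and limma voom called 1 and DESeq2 0. In the pericycle 2 were higher (13.9%) and 0 lower (7.91%), in the stele 1 was higher (8.37%) and 0 lower (3.98%), and in the lateral root cap 1 was higher (12.2%) and 1 lower (9.13%).

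At HPi, 1 of 8 members was higher in the epidermis (11.5% of all genes) and 1 was lower (6.23%). In the cortex 1 was higher (8.02%) and 0 lower (3.36%), in the pericycle 1 was higher (13.2%) and 0 lower (7.17%), in the stele 1 was higher (12.1%) and 1 lower (5.68%), and in the lateral root cap 1 was higher (12.4%) and 1 lower (11.5%). The genes behind these counts were few. LPR2 accounts for 4 of the 6 calls at LPi and for 4 of the 8 calls at HPi.

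LPR2 was read mainly in the inner sorts. In the pericycle it was read at 114, 116 and 521 CPM at LPi and at 136, 137 and 145 CPM at HPi. In the stele it was read at 24.9, 71.7 and 46.2 CPM at LPi and at 46.4, 53.0 and 50.9 CPM at HPi. In the remaining 3 sorts it ranged from 0 to 16.2 CPM at LPi and from 0.227 to 6.39 CPM at HPi. At both phosphate levels the pericycle libraries lay above all stele libraries and the stele libraries above all others, while cortex, lateral root cap and epidermis overlapped in that order.

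The pericycle level of LPR2 was higher than the mean of the other 4 sorts by a log2 difference of 5.12 at LPi (SE 0.645, adjusted p = 3.63e-06 by edgeR) and 4.58 at HPi (SE 0.637, adjusted p = 2.37e-05). The fold difference at HPi was 23.8 against this mean of log2 levels, which the 3 sorts with low levels pull down. The group means at HPi were 139 CPM in pericycle and 50.1 CPM in stele. Without pericycle LPi replicate 3 the LPi value was 4.04 (adjusted p = 0.000326). Both calls held under all 38 alternatives. In the stele the difference was 2.19 at LPi (SE 0.668, adjusted p = 0.0324), which was lost in 10 of 38 alternatives, among them those without stele LPi replicate 2 (1.79, adjusted p = 0.263), replicate 3 (2.24, adjusted p = 0.121) or the nearly identical pair (2.07, adjusted p = 0.0681), and 2.73 at HPi (SE 0.654, adjusted p = 0.00453), which held in all 38.

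LPR2 was lower in the outer sorts. In the epidermis the log2 difference from the other 4 was -3.54 at LPi (SE 0.972, adjusted p = 0.0124 by edgeR) and -2.67 at HPi (SE 0.916, adjusted p = 0.0453). In the lateral root cap it was -3.07 at LPi (SE 0.949, adjusted p = 0.0239) and -2.48 at HPi (SE 0.906, adjusted p = 0.0496). The HPi calls stood close to the threshold and were lost in 30 and 31 of 38 alternatives, with highest adjusted p-values of 0.238 and 0.190. The replicate block was among these, with adjusted p-values of 0.0552 in the epidermis and 0.0619 in the lateral root cap. Between sorts that block gives each replicate number a shared effect, and whether replicate numbers match across sorts was not tested. Also among these alternatives were the fits without the 3 shallowest libraries (0.0587 and 0.0581) and without the nearly identical pair (0.238 and 0.0593). The LPi calls were lost in 3 alternatives for the epidermis, all of which leave out LPi replicate 1 or 3 (highest adjusted p = 0.0758), and in 2 for the lateral root cap (without LPi replicate 1 or 2, highest adjusted p = 0.0790). The direction held in each. The sum of the phloem markers moved with LPR2 over the sorts at HPi, at 193 to 323 CPM in pericycle, 107 to 136 CPM in stele and 2.25 to 30.4 CPM elsewhere. In pericycle and stele that sum was nearly all SUC2. APL did not follow LPR2, at 5.45 to 10.9 CPM in pericycle but 0 to 0.695 CPM in stele at HPi. Its epidermis libraries (1.13 to 1.35 CPM) lay above those of the stele. At LPi the markers summed to 78.1 to 217 CPM in pericycle, 34.9 to 143 CPM in stele and 2.83 to 23.3 CPM elsewhere. Pericycle and stele thus overlapped for the sum but not for LPR2. Pericycle LPi replicate 3 had the highest LPR2 and the lowest marker sum of the pericycle. Their part in the result was not tested.

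LPR1 had another distribution. In the cortex sort it was read at 6.16, 2.83 and 1.92 CPM at LPi and at 4.14, 10.4 and 2.21 CPM at HPi. In the stele it was read at 3.32, 2.69 and 0.0710 CPM at LPi and at 0.672, 2.39 and 1.86 CPM at HPi, and in the pericycle at 0.0333, 2.63 and 2.17 CPM at LPi and at 0, 0.332 and 1.38 CPM at HPi. The cortex had the highest mean at both levels, but its libraries overlapped those of the stele, and the values of 3.32, 2.17 and 0.672 CPM rest on 2, 2 and 1 reads. In the lateral root cap LPR1 was near 0, with 0 to 0.583 CPM at LPi and 0.0478 to 0.229 CPM at HPi.

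At HPi the cortex level of LPR1 was higher than the mean of the other 4 sorts by a log2 difference of 4.32 (SE 1.07, adjusted p = 0.00594 by edgeR). The call was lost without cortex HPi replicate 2, the highest library (3.51, adjusted p = 0.0522), and could not be tested under a filter of 5 CPM. At LPi the difference was 2.17 (SE 1.10, adjusted p = 0.236). The size of the HPi difference is uncertain, because epidermis and lateral root cap libraries with 4 reads at most enter the mean of log2 levels. The HPi means were 5.57 CPM in cortex and 1.64 CPM in stele, the next sort. Because the cortex sort carried endodermis markers and hardly any AT1G62500, the LPR1 signal cannot be assigned to either layer. The quiescent centre marker WOX5 was also highest in that sort, at 18.2 to 41.3 CPM at LPi and 10.6 to 16.3 CPM at HPi. In the other sorts WOX5 was at 0 to 7.59 CPM and 0.229 to 6.14 CPM. The part of such cells in the LPR1 signal was not tested.

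**Figure D3:**
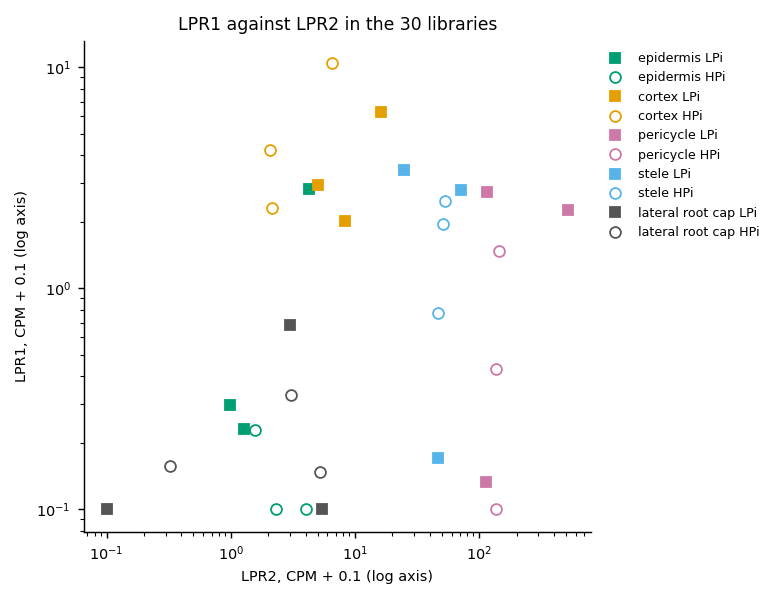
LPR1 (y axis) against LPR2 (x axis) in the 30 libraries, both in CPM + 0.1 on log axes, with filled squares for LPi and open circles for HPi, coloured by cell type. Pericycle libraries lie at the right edge at LPR2 levels of 114 to 521 CPM, and cortex libraries lie high on the LPR1 axis at 1.92 to 10.4 CPM.

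PDR2, which restrains LPR1, was read evenly. Its mean was 88.4 ± 22.9 CPM in cortex to 114 ± 21.1 CPM in epidermis at LPi when the pericycle is set aside, and 95.8 ± 34.6 CPM in stele to 131 ± 16.7 CPM in cortex at HPi (SD, n = 3 each). At HPi every sort overlapped its neighbours in the order cortex, epidermis, pericycle, lateral root cap, stele. The lowest libraries, at 54.8 CPM (LPi) and 56.5 CPM (HPi), were the shallow stele replicates 1. At LPi the pericycle was called higher (log2 difference 1.83, SE 0.354, adjusted p = 0.000252 by edgeR), a result that rested on pericycle LPi replicate 3, and at HPi the difference was 0.03 (SE 0.389, adjusted p = 0.979). Without that library the LPi difference was 0.12 (adjusted p = 0.848), and by limma voom it was 0.18 (adjusted p = 0.627).

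STOP1 was read at similar levels in 4 sorts and was lower in the stele. Stele libraries held 58.1, 107 and 128 CPM at LPi and 52.4, 87.6 and 87.3 CPM at HPi. The other 4 sorts held 69.4 to 167 CPM at LPi and 107 to 168 CPM at HPi. At HPi all 3 stele libraries lay below every library of the other sorts, whereas at LPi the ranges overlapped. The log2 difference was -0.91 at HPi (SE 0.254, adjusted p = 0.0115 by edgeR) and -0.45 at LPi (SE 0.246, adjusted p = 0.253). The HPi call was lost without stele HPi replicate 1, a shallow library that also carried endodermis markers at 1101 CPM (-0.69, adjusted p = 0.123), while it held when all 3 shallow libraries were left out (-0.80, adjusted p = 0.00539).

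ALMT1, the target of STOP1, was highest at HPi in the sort labelled cortex, which also carried endodermis markers. Cortex libraries held 1.13, 4.75 and 0.404 CPM at LPi and 6.79, 5.39 and 4.41 CPM at HPi. The remaining sorts held 0 to 3.84 CPM at LPi and 0 to 2.22 CPM at HPi. At HPi the 3 cortex libraries lay above all other libraries, and at LPi all sorts overlapped. The log2 difference of the cortex from the other 4 was 2.40 at HPi (SE 0.867, adjusted p = 0.0721 by edgeR), which did not pass, and 0.53 at LPi (SE 0.961, adjusted p = 0.831). The HPi difference passed by limma voom (2.79, adjusted p = 0.000681), with the replicate number as a block (2.76, adjusted p = 0.0370), and without pericycle LPi replicate 1 (2.40, adjusted p = 0.0369) or lateral root cap HPi replicate 2 (3.23, adjusted p = 0.0113). Across the 30 libraries the log2 CPM of STOP1 and ALMT1 had a Pearson r of 0.09.

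MATE, the citrate exporter, was read mainly in the lateral root cap. Libraries of that sort held 17.3, 10.1 and 2.44 CPM at LPi and 6.64, 0.963 and 18.2 CPM at HPi. The other 4 sorts held 0 to 2.40 CPM at LPi and 0 to 4.99 CPM at HPi, the highest in the pericycle at HPi. At LPi the 3 lateral root cap libraries lay above all others, by a small margin for replicate 3, and at HPi they overlapped with the pericycle. The log2 difference from the other 4 sorts was 4.40 at LPi (SE 0.998, adjusted p = 0.00218 by edgeR), which held in all 38 alternatives, and 3.68 at HPi (SE 0.957, adjusted p = 0.00597), which was lost without lateral root cap HPi replicate 3 (2.54, adjusted p = 0.126). At LPi root cap markers summed to 972, 1143 and 1368 CPM in replicates 1, 2 and 3 of that sort, the reverse of the order of MATE. At HPi the sums were 603, 721 and 1780 CPM. Replicate 3 was then highest for the sum and for MATE, but replicates 1 and 2 stood in opposite order. BFN1 made up most of these sums, with 491, 574 and 1543 CPM at HPi. SMB (7.10, 5.04 and 12.7 CPM) and BRN1 (61.6, 59.2 and 82.8 CPM) had the replicate order of MATE at HPi. BRN2 and BFN1 did not, and at LPi no marker had the order of MATE. The part of root cap cells in these values was not tested. In the epidermis sort, with root cap markers at 969 to 1200 CPM at HPi, MATE was read at 0.169, 0 and 0.872 CPM.

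STAR1 and ALS3, the subunits of 1 transporter, both had their highest HPi mean in the epidermis. STAR1 was read there at 6.57, 4.37 and 12.8 CPM at LPi and at 4.57, 9.06 and 11.5 CPM at HPi. The other 4 sorts held 0.675 to 16.5 CPM at LPi and 0 to 8.72 CPM at HPi, with the highest values in the lateral root cap. The epidermis and lateral root cap libraries overlapped. The log2 difference of STAR1 in epidermis was 1.09 at LPi (SE 0.645, adjusted p = 0.249 by edgeR) and 1.83 at HPi (SE 0.612, adjusted p = 0.0352). The HPi call was lost without epidermis HPi replicate 2 (1.94, adjusted p = 0.0648), without replicate 3 (1.74, adjusted p = 0.120) and without the nearly identical pair (1.74, adjusted p = 0.134). ALS3 held 4.40 to 11.7 CPM in the epidermis at LPi and 2.54 to 10.9 CPM at HPi, the highest in each case in the nearly identical replicate 3. Its lowest mean was in the cortex, at 2.42 ± 0.573 CPM at LPi and 1.87 ± 1.36 CPM at HPi (SD, n = 3 each), and no sort was called.

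**Figure D4:**
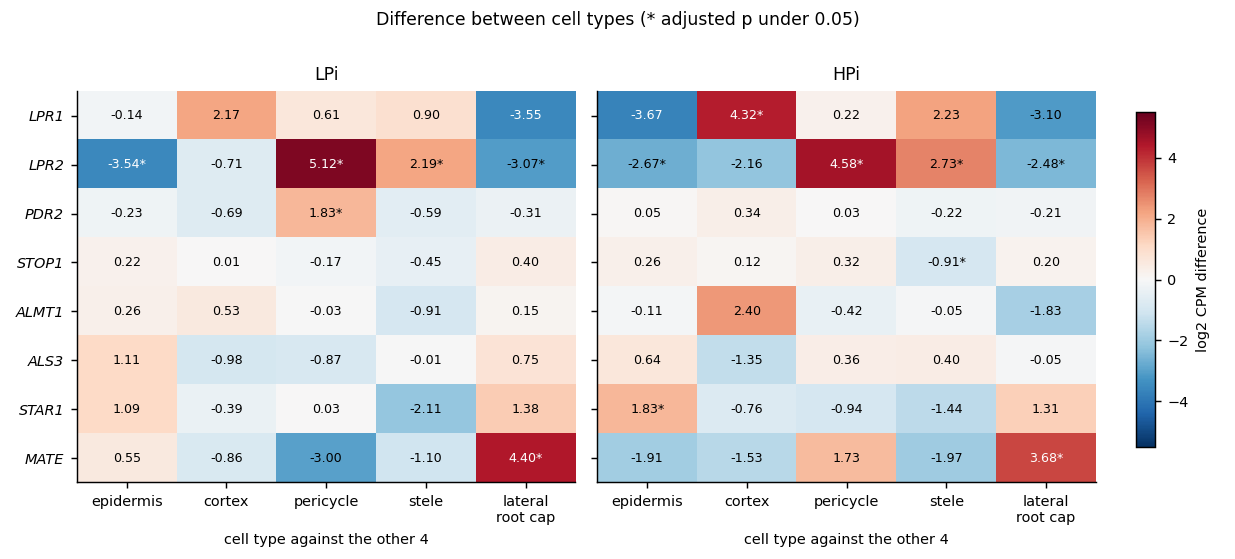
Log2 difference in CPM between each cell type and the mean of the other 4, at LPi (left) and HPi (right), for the 8 genes, with an asterisk where the edgeR adjusted p was under 0.05. LPR2 is called in 4 columns of each panel (5.12 in pericycle at LPi and 4.58 at HPi), and the value of PDR2 in pericycle at LPi (1.83, with an asterisk) was 0.12 and not called without pericycle LPi replicate 3.

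Correlations between members of a shared complex or pathway were low when all libraries were used. Over the 30 libraries the Pearson r of log2 CPM was 0.31 for LPR1 and LPR2, 0.32 for ALS3 and STAR1, 0.34 for STOP1 and MATE, 0.17 for LPR2 and PDR2 and 0.02 for PDR2 and STOP1. Without pericycle LPi replicate 3 the value for PDR2 and STOP1 was 0.66 and that for LPR2 and PDR2 was -0.27. LPR1, ALMT1, ALS3, STAR1 and MATE had few reads in some libraries, and counting error there can lower r. Low values therefore do not show that these genes vary apart. The libraries share sorts, depth and the near-identical pair, so these values are descriptions.

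Likeness of pattern was measured against 11436 genes, those whose log2 CPM averaged at least 2. The closest to LPR2 over the 30 libraries were AGO10, an Argonaute protein (Pearson r 0.947), ATL8, a RING-type gene (0.947), and AT3G16330 (0.943). Those closest to PDR2 were AT5G01010 (0.942), NRB4, a Mediator subunit (0.933), and UBA2A, an RNA-binding protein (0.930). Their Spearman values were lower (0.711, 0.667 and 0.617). PDR2 stood at 865 CPM in pericycle LPi replicate 3, and the part of that library in these Pearson values was not tested. For STOP1 the closest genes were AT1G06800 (0.866), AT2G38410 (0.865) and FRS1 (0.857). For STAR1 they were AT5G42420, a nucleotide-sugar transporter family gene (0.851), AT2G33510 (0.825) and AIF1 (0.819). The low members had looser neighbours. LPR1 was closest to AT1G72940 (0.724), AT3G23310 (0.713) and ICE1 (0.712). ALMT1 was closest to ARAD1 (0.802, with a Spearman value of 0.580), AT1G19860 (0.677) and AT5G48640 (0.674). ALS3 was closest to TSC10A (0.748), CNGC9 (0.721) and AT4G12090 (0.675), and MATE to PTR6 (0.743), APG5 (0.705) and AT5G63060 (0.682).

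Around the 8 members, 46 other genes of the same biology were examined in 5 groups, all of which passed the filter on low counts. These were 13 genes linked to STOP1 regulation, 7 targets of STOP1, 13 further genes of the malate transporter family, 8 genes linked to LPR1 or PDR2 and 5 other aluminium tolerance genes. At LPi against HPi, 0 of 46 were called by edgeR in any sort, in the mean or for a response that differs between sorts. At an unadjusted p under 0.05 there were 0 in the epidermis, 1 in the cortex, 9 in the pericycle, 4 in the stele and 2 in the lateral root cap, where 0.977%, 4.91%, 12.3%, 3.05% and 6.75% of all genes had such a p. Without pericycle LPi replicate 3 the pericycle count was 2 of 46, with 5.36% of all genes. At the level of cell types, the joint test called 21 of 46 at LPi and 22 of 46 at HPi, where 39% and 39.1% of all genes were called. Where a call is named at a single phosphate level, edgeR did not call the gene at the other, and the difference between the levels was not tested.

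Of the 13 STOP1 regulators, 6 differed between sorts at LPi and 5 at HPi. STOP2 followed the outer sorts. It was higher in the lateral root cap (log2 difference 4.87 at LPi and 4.38 at HPi, adjusted p = 7.77e-05 and 9.14e-05 by edgeR) and in the epidermis (4.13 and 3.56), and lower in the stele at LPi (-6.80) and in the pericycle at HPi (-5.21). SIZ1, the most abundant of the group, was read at 209 to 781 CPM in pericycle at LPi, against 143 to 248 CPM elsewhere, and was called there (1.12, adjusted p = 0.0025), as were the THO complex genes THO1 (3.50) and TEX1 (4.22) and the kinase gene MPK4 (1.90), all with their highest value in pericycle LPi replicate 3. THO1 was read at 500 CPM in that library, against 25.6 and 13.9 CPM in replicates 1 and 2. Without it all 4 calls were lost, at 0.28 for SIZ1 (adjusted p = 0.448), 0.33 for THO1 (0.746), 0.51 for TEX1 (0.654) and 0.65 for MPK4 (0.0890), and of their joint calls at LPi only that of THO1 passed (0.0288), which was lost without the 3 shallowest libraries (0.530). WRKY46, a repressor of ALMT1, was higher in the stele (2.24) and lower in the lateral root cap (-2.92) at HPi. AT5G27920, an F-box family gene and the next most abundant, was lower in the stele at HPi (-1.07, 30.2 to 61.8 CPM, against 63.3 to 154 CPM elsewhere). AT5G01720, an RNI-like superfamily gene, was higher in the pericycle (0.81) and lower in the stele (-0.80), and ESD4, a SUMO protease gene, was lower in the lateral root cap (-1.29), all at HPi. The stele call of AT5G01720 was lost without the 3 shallowest libraries (adjusted p = 0.0534), and the joint call of ESD4 at HPi without the nearly identical pair (0.0880).

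Of the 7 STOP1 targets, 4 differed between sorts at LPi and 5 at HPi. GDH2, a glutamate dehydrogenase gene and the most abundant, was read at 3377 to 4930 CPM in the epidermis at LPi and 5073 to 5864 CPM at HPi and was higher there (log2 difference 1.60 at LPi and 2.03 at HPi, adjusted p = 8.7e-06 and 1.26e-07 by edgeR) and in the lateral root cap (1.31 and 1.44), and lower in pericycle (-1.04 and -1.41) and stele (-0.99 and -1.36), and in the cortex at LPi (-0.88). PGIP1, a polygalacturonase inhibitor, was likewise higher in the epidermis (2.02 and 2.82) and lateral root cap (2.496 and 2.90) and lower in the stele (-2.92 and -3.64). TDT, the tonoplast malate transporter, was higher in the cortex (1.79 and 1.92) and lower in the pericycle (-1.84 and -1.28), at 35.9 to 71.7 CPM in cortex at LPi and 57.2 to 68.0 CPM at HPi. HSFA2, a heat stress factor, was higher in the pericycle (2.01 and 3.25), at 276 to 447 CPM at LPi and 389 to 631 CPM at HPi, and lower in the cortex at HPi (-2.10). Without pericycle LPi replicate 3 the pericycle call of HSFA2 at LPi (1.82, adjusted p = 0.0581), its joint call at LPi (0.131) and its cortex call at HPi (-2.17, adjusted p = 0.0543) were lost. CIPK23, a kinase of potassium and nitrate transport, was higher in the cortex (0.80, lost without the nearly identical pair, adjusted p = 0.0629) and lower in the stele (-0.89) at HPi.

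Of the 13 further malate transporter family genes, 5 differed between sorts at LPi and 5 at HPi. ALMT9, a vacuolar chloride and malate channel, was the most abundant, at 12.1 to 49.7 CPM at LPi and 8.98 to 55.1 CPM at HPi, and had no single sort called although the joint test passed (adjusted p = 0.0368 at LPi and 0.0145 at HPi). AT5G46600 was higher in the cortex, at 14.7 to 16.3 CPM at LPi and 11.4 to 12.4 CPM at HPi, against 0 to 5.44 CPM and 0.169 to 6.35 CPM in the other sorts (log2 difference 2.86 and 2.02, adjusted p = 0.000357 and 0.0111 by edgeR). AT1G18420 was higher in the epidermis (4.67 and 4.85) and lateral root cap (5.33 and 3.16), ALMT6 in the lateral root cap at LPi (5.02) and AT1G25480 in the epidermis at HPi (2.05), while AT5G46610 was lower in the stele at HPi (-2.39). Without the nearly identical pair the joint calls of ALMT9 at both levels (0.0766 at LPi and 0.0619 at HPi), of ALMT6 at LPi (0.0534) and of AT5G46600 and AT5G46610 at HPi (0.0898 and 0.0558) were lost, and without the 3 shallowest libraries those of ALMT6 at LPi (0.0731) and of AT5G46610 at both levels (0.0624 and 0.0662).

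Of the 8 genes linked to LPR1 or PDR2, 4 differed between sorts at each phosphate level. SCR and SHR, the transcription factors of ground tissue patterning, were both higher in the cortex sort. SCR was read there at 47.9 to 66.7 CPM at LPi and 71.8 to 113 CPM at HPi, against 0 to 4.98 CPM and 0 to 9.41 CPM elsewhere (log2 difference 5.45 and 5.90, adjusted p = 6.75e-05 and 1.1e-05 by edgeR), and was lower in the pericycle at HPi (-3.56). SHR was higher in the cortex (3.74 and 3.81) and, at HPi, in the pericycle (1.94) and stele (2.39), and was lower in the lateral root cap (-3.54 and -4.35) and in the epidermis at HPi (-3.79). SCR is also 1 of the 5 endodermis markers. CLE14, a peptide gene, was higher in the lateral root cap (4.13 and 4.58), at 13.4 to 22.0 CPM at LPi and 5.67 to 8.24 CPM at HPi, and in the epidermis at HPi (3.99), and lower in the stele at HPi (-4.81). PEPR2, a receptor kinase for that peptide, was lower in the epidermis (-1.95 and -2.45) and lateral root cap (-1.75 and -1.75) and higher in the stele (1.58 and 1.77), the pericycle (0.996 and 1.24) and the cortex (1.13 and 1.19). At HPi the receptor gene CLV2 was higher in the pericycle (3.69), the brassinosteroid signalling genes BKI1 higher in the cortex (2.91), BZR1 lower in the epidermis (-1.23) and BES1 lower in the lateral root cap (-1.43), although their joint tests did not pass. Without the nearly identical pair the calls of CLV2 (3.34, adjusted p = 0.0574), BZR1 (-1.21, adjusted p = 0.170) and BES1 (-1.41, adjusted p = 0.0572), of SHR in the epidermis (-3.61, adjusted p = 0.0569) and pericycle (1.86, adjusted p = 0.0723) at HPi and of PEPR2 in the pericycle at LPi (1.01, adjusted p = 0.0551) were lost.

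Of the 5 other aluminium tolerance genes, 2 differed between sorts at LPi and 3 at HPi. ALS1, a vacuolar ABC transporter and the most abundant, was read at 182 to 239 CPM in the epidermis at LPi and 210 to 266 CPM at HPi, above all libraries of the inner sorts (35.8 to 116 CPM and 48.8 to 97.9 CPM). It was higher in the epidermis (log2 difference 1.18 at LPi and 1.44 at HPi, adjusted p = 0.000255 and 1.32e-05 by edgeR) and lateral root cap (0.74 and 0.90), and lower in the pericycle at LPi (-1.02) and the stele at HPi (-1.26). NIP1;2, which carries aluminium malate, was higher in the epidermis (2.97 and 4.47) and lateral root cap (4.54 and 5.42), and lower in the cortex at LPi (-4.14) and the pericycle at HPi (-5.26). ATR, a DNA damage checkpoint kinase, was higher in the pericycle (2.63) and lower in the epidermis (-2.67) at HPi. Its epidermis call was lost without the pericycle LPi replicate 3 (-2.51, adjusted p = 0.0540), the 3 shallowest libraries (-2.55, adjusted p = 0.0662) or the nearly identical pair (-2.33, adjusted p = 0.212), and without the pair its joint call (0.0667) and the cortex call of NIP1;2 (-4.15, adjusted p = 0.0508) were lost as well. WAK1, a wall-associated kinase, and FRD3 were not called in any sort.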

How the data were processed

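The authors deposited 1 table of raw counts per gene, made according to the submitters' processing notes with CASAVA 1.4, FastQC 0.11.9, MultiQC 1.7, STAR 2.5.3a and HTSeq 1.99.2. Build, annotation and strandedness: not given in the sources used here. Libraries were made from sorted cells with an amplification kit for very low input, so reads are not independent molecules. The 5 total lines (4.99% to 12.5% of a library) were left out. Libraries held 427064 to 122076663 reads in 16455 to 29409 genes, and precision for low genes follows that depth.

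Counts were fitted in edgeR 4.0.16 (R 4.3.3) by the quasi-likelihood F test (two-sided, robust) with TMM scaling and filterByExpr. One fit held all 30 libraries (20 residual degrees of freedom, common biological coefficient of variation 0.749), and a call was a Benjamini-Hochberg adjusted p under 0.05 over 24866 genes. Every adjusted p named without another tool is from this fit. The steps were also run on simulated counts, with changes planted only in genes above a mean level that LPR1, ALMT1, ALS3, STAR1 and MATE lie below. That run held no outlying library and no nearly identical pair, so it does not bear on these members or on such libraries. A standard error is the absolute log2 difference divided by the square root of F, and CPM were TMM-scaled, with a prior count of 1 for log2 values. Whether the 3 replicates of a group were grown separately is not labelled, and p-values therefore cover the spread among libraries, which may be technical.

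The alternatives tried were DESeq2 1.42.0, limma voom (limma 3.58.1) with sample weights, RLE scaling in edgeR, leaving out the low-count filter, requiring 5 CPM in 3 libraries, each cell type fitted alone, a replicate block, and fits without each library, the 3 shallowest or the nearly identical pair. Replicate numbers are shared between LPi and HPi. Deviations of same-numbered libraries correlated at 0.123 to 0.238 in the epidermis, which holds the nearly identical pair, and 0.111 to 0.212 in the stele. Correlations were -0.202 to 0.0376 in the cortex, 0.0189 to 0.0613 in the pericycle and 0.00292 to 0.107 in the lateral root cap. Of the 3 HPi libraries of a sort, those closest to the LPi library of their own number were 3 in the epidermis and pericycle. They were 2 in the stele and lateral root cap and 0 in the cortex. In the stele, HPi replicate 2 had 0.115 with LPi replicate 3 and 0.111 with LPi replicate 2. Whether the numbers mark pairs is therefore uncertain. The main fit held no replicate term, so its values are unpaired in every sort. Pairing entered only through the replicate block, which was fitted in all 5 sorts at once. For LPi against HPi that block was set within each sort, and between sorts each replicate number had a shared effect. The members and lists were chosen with earlier results of these data known. All members were named, with log2 changes for LPi where the unadjusted p was under 0.05 or the change was the member's largest. Between cell types, calls were printed, for members with the value at the other phosphate level beside them. Values of list genes and mean levels without the libraries that stand apart were added after seeing the data. The other genes named were the 3 most alike to each member, the called genes of the lists and the 2 most abundant of each list. ALMT1 in the cortex at HPi was described after its values were seen. Gene positions, products and sequences are from RefSeq on TAIR10.1, in which all 8 members were found.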

Additional observations from a re-analysis of the deposited data

How the results depend on the processing

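At LPi against HPi 0 members were called in each sort, which changed in the pericycle under RLE size factors (1, PDR2) and in fits without 1 library (0 to 1). There PDR2 stood at -0.0173 by limma voom, and STOP1 at 9.25e-05 without the 3 shallowest libraries and between -0.68 and 0.000496 in fits without 1 library. In cell type comparisons at HPi, the epidermis (2 members called) had 1 under RLE size factors, without the filter, with the replicate block and without the 3 shallowest libraries, 0 without the nearly identical pair and 0 to 2 without 1 library. The cortex (1) had 0 under the 5 CPM filter, which leaves LPR1 untested, 2 by DESeq2, 3 by limma voom, 2 with the block and 0 to 2 without 1 library. The stele (2) had 4 by limma voom and 1 to 2 without 1 library, and the lateral root cap (2) had 4 by DESeq2, 1 without the filter, with the block, without the 3 shallowest or without the pair, and 1 to 2 without 1 library. At LPi, the joint test (3) gave 4 by DESeq2. The epidermis (1) had 2 by limma voom, 0 without the pair and 0 to 1 without 1 library. The cortex (0) had 1 by limma voom. The pericycle (2) had 1 by limma voom and without the 3 shallowest, and 1 to 2 without 1 library. The stele (1) had 2 by DESeq2 and by limma voom, 0 without the pair and 0 to 2 without 1 library, and the lateral root cap (2) had 1 to 3 without 1 library. The replicate block dropped LPR2 in the epidermis (-2.67, adjusted p = 0.0552 by edgeR) and the lateral root cap (-2.51, adjusted p = 0.0619) and added ALMT1 in the cortex (2.76, adjusted p = 0.0370), all at HPi, and changed no other member's call. Of 874 log2 differences recomputed for 23 results, 779 kept direction and side of the threshold, 85 lost the call, 7 gained one and 3 reversed. Where the cause is not stated, the cause was not tested. DESeq2 gave no adjusted p for PDR2.

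Calls over all genes moved more. At LPi against HPi in the pericycle edgeR called 1 gene, against 889 under RLE size factors, 164 under the 5 CPM filter, 1498 by DESeq2, 3 without the 3 shallowest and 0 to 1107 without 1 library (1091 without pericycle LPi replicate 1, 1107 without replicate 2). The lateral root cap had 6, against 158 by DESeq2, 0 by limma voom, 1 with the block or without the pair and 0 to 109 without 1 library. Other LPi comparisons had 0 or 1, against 2 (epidermis), 22 (cortex), 30 (stele), 38 (mean) and 43 (difference between sorts) by DESeq2, and limma voom gave 2 in the cortex and for the mean, 77 in the stele and 56 for the difference. RLE scaling and the 5 CPM filter gave 2 for the mean, the stele had 2 without the 3 shallowest, and without 1 library the cortex had up to 15 (without cortex HPi replicate 2) and the difference up to 3. Fits of a cell type alone gave 0 in the pericycle and lateral root cap. Joint calls were 9690 at LPi and 9730 at HPi, against 14709 and 15741 by limma voom. Single sorts by edgeR, against limma voom, were 4855 and 9115 (epidermis) and 3071 and 7390 (stele) at LPi, and 4420 and 6972 (epidermis), 2831 and 5747 (cortex), 5061 and 12044 (pericycle) and 4411 and 11575 (stele) at HPi. The cortex at LPi had 2569, against 3972 by DESeq2. Without 1 library the counts were 1437 to 3042 (cortex) and 1218 to 3566 (stele) at LPi, and 1474 to 3403 (cortex), 2873 to 5688 (pericycle) and 2316 to 5319 (stele) at HPi. Depth limits LPR1, ALMT1 and MATE most, which had under 5 reads in several libraries.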
